A study of Mus musculus with 6 samples.

Results

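Frame-shifting single cassette exons were examined in the nucleus accumbens (NAc), the part of the ventral striatum that serves reward. A cassette exon is an exon that some transcripts of a gene include and others skip, and it shifts the reading frame when its length is not a multiple of 3. The exons were chosen by length alone. They were the single skipped exons of the event lists with at least 28 nt and a length not divisible by 3, counted once per gene, chromosome, strand, start and end over 6 libraries. This gave 4237 exons in 3021 genes, among 133207 listed events and 8834 single cassette exons. The frame-preserving exons of the same minimum length, 4132 in 2825 genes, served as the comparison.

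The libraries were made from total RNA of adult male mice of the C57BL/6N strain after training in conditioned place preference (CPP), in which an animal learns to link a compartment with an injection. The saline group received saline injections (3 libraries), and the morphine group received morphine injections (3 libraries). In the study's protocol, morphine or saline was injected in alternating morning and afternoon sessions. The tissue was collected after a preference test that followed the last session. Neither group carried an engineered allele. Per the study's methods, the reads were assembled into transcripts. Each listed cassette exon is entered as an including and a skipping form in the list of its library, so that an exon is listed where both forms were found. The lists hold no expression level, and in bulk tissue a change in the number of cells of a type and a change within cells cannot be told apart. A figure text of the study has each library stand for a single mouse, whereas the design text names more mice than libraries, so p-values measure only the spread between these libraries.

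Marker genes of cell types were counted as listed, with at least 1 event of any type, or not listed. Each library listed 14243 to 14956 genes, so this count is a description and cannot check the tissue label. All 9 medium spiny neuron markers, among them Drd1, Drd2 and Adora2a, had listed events in all 6 libraries, as did the 6 oligodendrocyte, 4 astrocyte and 4 microglia markers. Of the endothelial markers, Cldn5 was listed in 0 libraries, and of the ependymal and choroid plexus markers, Folr1 was listed in 3. Total read numbers were not analysed here. The relative depth, with saline library 1 set to 1, ran from 1 to 1.37 in the saline group and from 1.20 to 1.59 in the morphine group.

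Splicing removes or keeps whole exons, and translation reads on in steps of a codon, so that an exon of uneven length changes every codon after the new junction. The stop codon then met is often far upstream of the last exon-exon junction, and such mRNAs are usually degraded by nonsense-mediated decay (NMD). Many splicing regulators limit their own protein through exons of this kind, which are skipped or included to send the mRNA to NMD. Other frame-shifting exons lie near the end of the coding sequence, where they exchange the C-terminal end of the protein without NMD, or upstream of the start codon, where they leave the protein as it is. In the following, a stop codon more than 50 nt before the last junction is called an early stop, and any other shifted stop a late stop.

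The exon sequences that stand for these kinds are shown first, as GENCODE M21 gives them on GRCm38. The 91-nt exon 4 of 13 of Clk4 (chr11:51273078-51273168, plus strand), a kinase that phosphorylates SR splicing factors, was listed in all 6 libraries. Skipped, it gave the joined sequence shown on the line after it, which runs from 15 bases before the new junction to the first stop codon read, in capitals. The exon of the same number and length in the related kinase Clk1 (chr1:58420121-58420211, minus strand) was listed in 2 libraries, saline library 3 and morphine library 1.
Clk4 exon: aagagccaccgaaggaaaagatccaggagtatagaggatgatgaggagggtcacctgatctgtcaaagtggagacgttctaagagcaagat
Clk4 skipped: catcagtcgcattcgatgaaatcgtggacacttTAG
Clk1 exon: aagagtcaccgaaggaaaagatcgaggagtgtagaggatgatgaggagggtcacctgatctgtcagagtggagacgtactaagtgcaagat
The exons of Clk1 and Clk4 were identical at 85 of 91 positions (93.4%). In both kinases the stop was read 18 nt after the new junction and 809 nt before the last one.

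Oprl1, the receptor for the opioid-like peptide nociceptin, held an exon of each direction. Its 34-nt exon 3 of 5 (chr2:181716502-181716535, plus strand) was listed in all 6 libraries, and skipping it gave an early stop 11 nt after the junction. Its 139-nt exon starting at chr2:181717955 was listed in 5 libraries, and it was the inclusion of this exon that gave an early stop. The second exon is shown from its first base to that stop, in capitals.
Oprl1 34-nt exon: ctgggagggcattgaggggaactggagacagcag
Oprl1 34-nt exon skipped: gtatgtcatcctcaggcacaccaagaTGA
Oprl1 139-nt exon to the stop: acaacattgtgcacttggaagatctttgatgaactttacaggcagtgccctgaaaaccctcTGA
Reading ended 342 nt before the last junction without the 34-nt exon and 431 nt before it with the 139-nt exon.

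Further exons that end the reading frame when included were found in Smg1, Hnrnpll and Tial1. Smg1 is the kinase that phosphorylates the NMD helicase Upf1, Hnrnpll is an RNA-binding regulator of alternative splicing, and Tial1 binds U-rich sequences near splice sites. The exons of Smg1 (58 nt, chr7:118217720-118217777, minus strand) and Hnrnpll (83 nt, chr17:80044940-80045022, minus strand) were listed in all 6 libraries, and that of Tial1 (59 nt, chr7:128444042-128444100, minus strand) in 4. Each is shown up to the stop codon, in capitals, that is met when the exon is placed into the coding transcript.
Smg1 exon to the stop: attgactTGA
Hnrnpll exon to the stop: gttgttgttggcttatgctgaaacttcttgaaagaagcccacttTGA
Tial1 exon to the stop: gtgtcaccaccccaaTAA
The stop lay 7, 44 and 15 nt into the exon in Smg1, Hnrnpll and Tial1.

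A different set carried the normal stop codon of a shorter or altered protein end. The 92-nt exon of Grm7 (chr6:111501510-111501601, plus strand) gives the b form of this metabotropic glutamate receptor. The 89-nt exon of Camk2d (chr3:126841485-126841573, plus strand), a subunit of calcium/calmodulin-dependent kinase II, lay likewise next to last in its transcript. Both were listed in all 6 libraries and are shown up to their stop codon, in capitals.
Grm7 exon to the stop: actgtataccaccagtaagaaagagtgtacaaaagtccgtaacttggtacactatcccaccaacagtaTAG
Camk2d exon to the stop: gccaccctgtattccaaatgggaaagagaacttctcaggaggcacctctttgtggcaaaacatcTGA
From the stop to the last junction there were 21 nt in Grm7 and 22 nt in Camk2d, so neither was an early stop.

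A smaller share of frame-shifting than of frame-preserving exons was listed in all 6 libraries. Of the 4237 exons, 1956 (46.2%) were listed in 1 library and 637 (15.03%) in all 6. Of the frame-preserving exons, 1301 (31.5%) were listed in 1 library and 1337 (32.4%) in all 6. Between these ends, 620, 418, 317 and 289 frame-shifting exons were listed in 2, 3, 4 and 5 libraries. Within a library, the share of exons that all 6 libraries listed was 34.8% ± 1.54 for frame-shifting and 56.2% ± 1.74 for frame-preserving exons (SD, n = 6 libraries). The difference, frame-shifting minus frame-preserving, ran from -22.1 to -19.5 percentage points. The numerators are the same 637 and 1337 exons in every library, so these values restate a single pooled comparison and no p is given for it.

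Read the other way, the frame-shifting share of single cassette exons fell with recurrence. It was 60.1% among exons listed in 1 library, 54.96%, 55.9%, 50.2% and 45.8% among those listed in 2 to 5, and 32.3% among those listed in all 6. Among exons lying wholly in coding sequence, it was 57.1% in 1 library and 19.7% in all 6. For reference, 59.2% of the 161004 internal coding exons of at least 28 nt in GENCODE M21 have a length not divisible by 3. The exons listed once were thus near the composition of all annotated coding exons, and the recurrent ones were far below it.

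**Figure D1:**
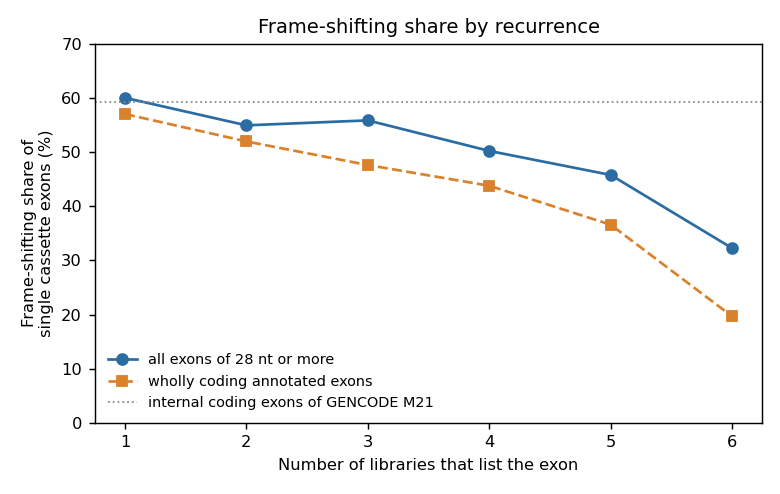
Frame-shifting share of single cassette exons of 28 nt or more (percent, vertical axis) by the number of libraries that list the exon (horizontal axis), for all exons (circles) and for wholly coding annotated exons (squares). The share falls from 60.1% to 32.3% over all exons and from 57.1% to 19.7% over coding exons, and the dotted line at 59.2% marks all internal coding exons of the annotation.

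Pairs of libraries also shared fewer frame-shifting exons. The number of exons listed in both libraries of a pair, divided by the number listed in either, was 0.428 to 0.435 between saline libraries, 0.398 to 0.430 between morphine libraries and 0.405 to 0.431 between groups. For frame-preserving exons, it was 0.604 to 0.613, 0.599 to 0.613 and 0.591 to 0.611. The means for frame-shifting exons were 0.4315 between saline libraries, 0.4148 between morphine libraries and 0.4167 between groups. Morphine pairs were thus not more alike than pairs across groups in this class. For frame-preserving exons, the means were 0.6085, 0.6037 and 0.5992. Where an exon was missing from a library, its gene had a listed event of any type there in 14349 of 14437 cases (99.4%). As 98.7% of the frame-shifting exons lay in genes listed in all 6 libraries, a high value follows. It does not show whether the gene was covered deeply enough for both forms.

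The place of an exon in its gene differed between the classes. Of the 4237 frame-shifting exons, 1926 (45.5%) lay wholly in coding sequence, 425 (10.03%) in the 5′ UTR, 260 (6.14%) held the start codon and 82 (1.94%) held the stop codon. A further 605 (14.3%) were annotated only in transcripts without a complete coding sequence, and 933 (22.0%) matched no annotated exon. Per library, 51.2% ± 1.22 of the annotated frame-shifting exons and 75.04% ± 0.646 of the annotated frame-preserving exons were wholly coding (SD, n = 6). The differences, frame-shifting minus frame-preserving, ran from -25.4 to -22.5 percentage points, in the same direction in 6 of 6 libraries (exact permutation test swapping the exon classes within each library, two-sided, p = 0.031, the smallest possible, and 0.031 after Benjamini-Hochberg adjustment over 3 such comparisons). Many exons are listed in several libraries, and their place is the same in each, so the 6 differences are not independent. This p, and the p for annotated exons that follows, therefore describe these libraries only. A smaller difference in the same direction was seen in the share of exons at an annotated exon, which was 85.5% ± 1.19 for frame-shifting and 91.98% ± 0.759 for frame-preserving exons (exact permutation test, two-sided, p = 0.031, adjusted p = 0.031).

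The recurrent exons were the ones that most often lay outside the coding sequence. Among annotated frame-shifting exons, the share in the 5′ UTR or holding the start codon was 14.4% in exons listed once and 34.5% in exons listed in all 6 libraries, whereas for frame-preserving exons it was 10.2% and 7.02%. The share holding the stop codon was 1.13% and 6.78%. Of the exons listed once, 68.0% were annotated, against 94.98% in all 6 libraries, their skipping junction was annotated in 53.0% against 93.1%, and their median length was 121 nt, against 97 nt. Of the 933 exons without an annotated match, 139 joined edges that are both annotated in other exons, 288 had 1 annotated edge and 506 had none.

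Within the coding sequence, frame-shifting exons lay further upstream. The median position of the exon start was 34.7% of the coding sequence for frame-shifting exons and 44.4% for frame-preserving exons. Per library, the medians ran from 32.2% to 35.9% and from 45.3% to 46.9%, and these ranges did not overlap. The first 10% of the coding sequence held 345 of 1926 frame-shifting exons (17.9%) and 306 of 2604 frame-preserving exons (11.8%). The stretch from 50% to 90% held fewer of the former in each of its bins, and in the last 10% the order turned, with 91 (4.72%) against 98 (3.76%).

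**Figure D2:**
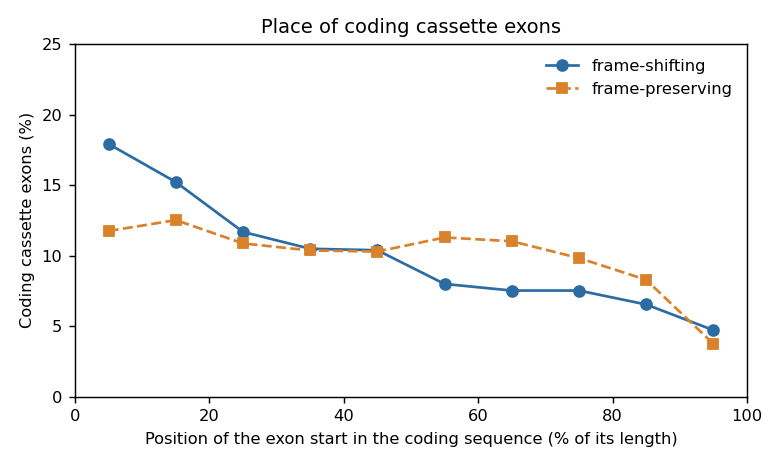
Share of coding cassette exons (percent, vertical axis) in 10 equal bins of the coding sequence (horizontal axis, percent of its length), for frame-shifting (circles) and frame-preserving exons (squares). Frame-shifting exons fall from 17.9% in the first bin to 4.72% in the last, while frame-preserving exons stay between 8.29% and 12.5% before the last bin.

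Removing a coding frame-shifting exon from its transcript gave an early stop in 1431 of 1926 exons (74.3%, Wilson 95% interval 72.3 to 76.2), a late stop in 490 and no stop in 5. The interval covers counting error only. Removing a frame-preserving exon left the normal stop in 2596 of 2604 exons. That a frame-shifting exon meets another stop follows from its length, and only the place of that stop is a measurement. The flanks in the event lists were the neighbouring exons of the transcript used here in 1733 of 1926 exons, and in those 1283 (74.0%) gave an early stop.

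The early stop was less frequent among recurrent exons. It was read in 734 of the 909 coding exons listed in 1 library (80.7%) and in 74.7%, 74.9%, 72.4% and 65.0% of those listed in 2 to 5. Among the 251 coding exons listed in all 6 libraries, it was read in 140 (55.8%). The next-to-last exon of the transcript made up 13.2% of the coding frame-shifting exons listed once and 33.1% of those listed in all 6, against 8.48% and 9.66% of the frame-preserving ones. When such an exon is removed, the new junction is the last one, so a stop read after it is late by definition.

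**Figure D3:**
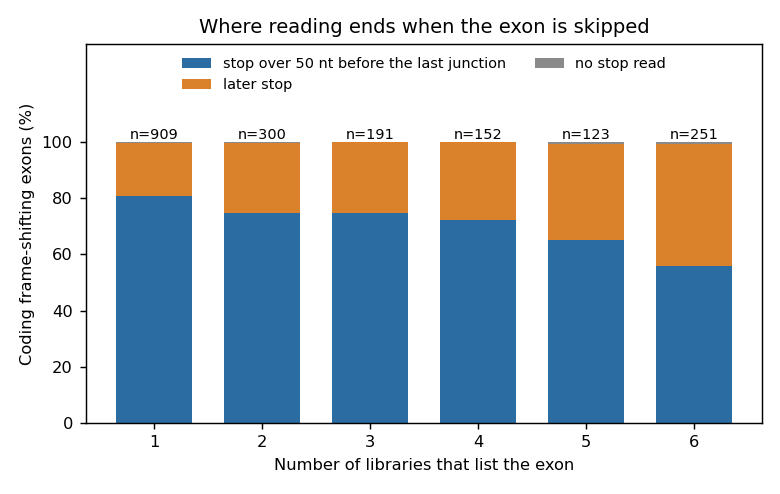
Share of coding frame-shifting exons (percent, vertical axis) by where reading ends when the exon is skipped, for exons listed in 1 to 6 libraries (horizontal axis), with the number of exons above each bar. The early stop, over 50 nt before the last junction, falls from 80.7% of 909 exons to 55.8% of 251.

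The opposite direction, an exon whose inclusion ends the frame, could be read for 925 exons that are not coding in their own transcript, by placing each into a coding transcript that skips it. An early stop was read in 321 (34.7%), a late stop in 107, and 497 lay outside the coding sequence. Among 708 frame-preserving exons read in the same way, 139 (19.6%) gave an early stop. Early-stop exons were 83 of all frame-shifting exons listed once (4.24%) and 77 of all those listed in all 6 libraries (12.1%). Inclusion could be read only for annotated exons that are not coding and whose skipping junction is in a coding transcript. Annotated exons made up 68.0% and 94.98% of these sets, and 68.3% and 41.5% of the annotated ones were coding. A larger share of the recurrent exons could thus be read, and the rise was not told apart from this difference. The annotation held 821 of the 4237 exons (19.4%) in a transcript labelled as an NMD target, and 154 in no other kind of transcript. For the 4132 frame-preserving exons, these numbers were 681 (16.5%) and 81.

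The genes of RNA-binding proteins held recurrent frame-shifting exons. In 13 SR protein genes, which code for activators of splicing, there were 3 such exons, 2 of them in all 6 libraries, beside 5 frame-preserving exons, 1 of them in all 6. The 24 hnRNP and Ptbp genes, many of them splicing repressors, held 15, with 8 in all 6, beside 14 frame-preserving exons, with 7 in all 6. The 39 other splicing regulators held 39, with 9 in all 6, beside 31, with 11 in all 6. The 17 NMD and exon junction factors held 7, with 2 in all 6, beside 3, with 1 in all 6, and the 4 Clk kinases held 8, with 2 in all 6, beside 0. Over all genes, 637 of 4237 (15.03%) frame-shifting and 1337 of 4132 (32.4%) frame-preserving exons were in all 6. The lists were chosen with earlier results of these data known, and no test was made over them.

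Among the SR proteins, Srsf9 held a 358-nt exon in all 6 libraries and a 79-nt exon in 5, and inclusion of either gave an early stop. The 104-nt exon of Srsf2 lay in the 3′ UTR and was listed in all 6. Among the hnRNPs, skipping gave an early stop for the 139-nt exon 3 of 10 of Hnrnph3, the 44-nt exon 7 of 18 of Hnrnpk and the 34-nt exon 2 of 15 of Ptbp3, a paralog of the neuronal repressor Ptbp2. All were listed in all 6 libraries, while the 34-nt exon 10 of 14 of Ptbp2 was listed in 1. Start-codon exons were listed in all 6 libraries in Syncrip (160 nt) and Hnrnpr. The 169-nt and 166-nt exons of Hnrnpr share their end and start 3 nt apart, so that they are not independent entries. The 50-nt exon 13 of 14 of Hnrnph1 held the stop codon. The short exons of Hnrnpk and Ptbp3 are shown for their size.
Hnrnpk exon: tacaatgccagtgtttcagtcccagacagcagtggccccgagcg
Ptbp3 exon: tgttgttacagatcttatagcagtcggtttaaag
Skipping the former (chr13:58397753-58397796, minus strand) put a stop 18 nt after the junction, and skipping the latter (chr4:59546149-59546182, minus strand) put it 52 nt after.

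Among the other regulators, muscleblind and Rbfox genes held exons whose skipping gave a late stop. The 95-nt exon 9 of 10 of Mbnl2 (chr14:120404638-120404732, plus strand) was listed in all 6 libraries, and the 95-nt exon 7 of 9 of Mbnl1 (chr3:60622146-60622240, plus strand) in 5. These proteins set many splicing choices of the developing brain and muscle.
Mbnl2 exon: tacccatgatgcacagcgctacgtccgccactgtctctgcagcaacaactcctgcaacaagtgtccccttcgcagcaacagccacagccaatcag
Mbnl1 exon: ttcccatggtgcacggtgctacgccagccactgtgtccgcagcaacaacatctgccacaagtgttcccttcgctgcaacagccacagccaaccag
The exons were identical at 81 of 95 positions (85.3%). Rbfox2, a regulator of neuronal exons, held a 40-nt exon in all 6 libraries and a 43-nt exon in 5, and skipping of either gave a late stop 214 nt after the junction. The 40-nt exon 12 of 15 of Rbfox1 was listed in 1 library, and a 53-nt Rbfox1 exon that matched no annotated exon was listed in all 6. In Rbm5, skipping of the 85-nt exon 16 of 25 gave an early stop and was listed in all 6. Exons holding the start codon were listed in all 6 in Celf1 (152 nt), Elavl2 (91 nt) and Srrm2 (271 nt), and a 64-nt exon of Rbm25 outside the coding sequence as well.

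The NMD machinery itself held Smg1, shown above, and a 181-nt exon of Rnps1, an exon junction protein, in all 6 libraries. The latter holds the start codon of another transcript, and placed into the longest coding transcript that skips it, it gave an early stop. The other NMD exons were listed in fewer libraries, with Smg9 (113 nt) in 3 and Upf3a (107 nt) in 1, both with an early stop on skipping. Clk4 also held a 161-nt exon with the start codon in all 6. The Clk kinases held 8 frame-shifting exons, 3 of them listed in 1 library, and 0 frame-preserving exons. An unannotated 3425-nt entry of Clk4 spans its 161-nt, 67-nt and 59-nt entries, so the 8 are not all independent entries.

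Synaptic and signalling genes held more frame-preserving than frame-shifting exons in all 6 libraries, which was also the direction over all genes. The 41 postsynaptic and glutamate receptor genes held 21 frame-shifting exons, 3 of them in all 6, and 33 frame-preserving exons, 18 of them in all 6. The 58 ion channel genes held 20, with 2 in all 6, and 34, with 16 in all 6. The 55 reward pathway genes held 11, with 3 in all 6, and 31, with 17 in all 6. The difference between lists was not tested.

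**Figure D4:**
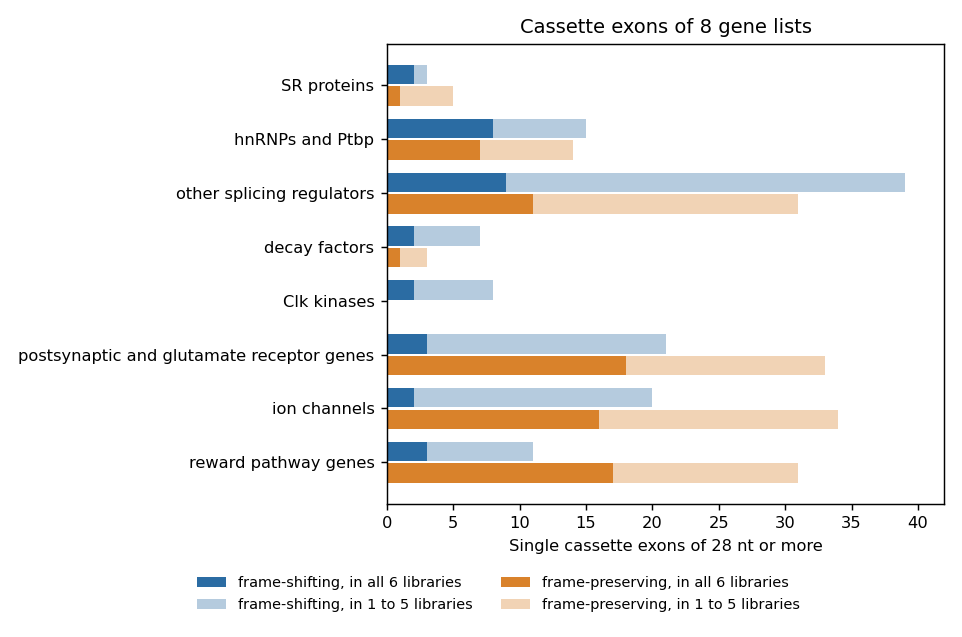
Number of single cassette exons of 28 nt or more (horizontal axis) in 8 gene lists (vertical axis), frame-shifting in blue and frame-preserving in orange, with exons listed in all 6 libraries in the full colour and those listed in 1 to 5 in the pale colour. The hnRNP and Ptbp list holds 8 frame-shifting exons in all 6 libraries, and the postsynaptic list holds 3 beside 18 frame-preserving ones.

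These lists held 8 frame-shifting exons in all 6 libraries. In the postsynaptic list they included the exon of Grm7 shown above and a 109-nt 5′ UTR exon of Dlgap1, a scaffold protein of the postsynaptic density. Among the channels they were a 160-nt exon of Cacnb4, a calcium channel subunit, which holds the start codon of a transcript, and the 29-nt exon 29 of 30 of Kcnma1. Kcnma1 codes for the large-conductance calcium-activated potassium channel, and its exon (chr14:23306725-23306753, minus strand) is near the lower length bound.
Kcnma1 exon: tgcaacaaggatgactagaatgggccaag
Skipping it gave a late stop 19 nt after the junction. In the reward list they were Camk2d, the 34-nt exon of Oprl1 and a 122-nt start-codon exon of Creb1, a transcription factor of cAMP signalling. Of these exons, that of Oprl1 gave an early stop on skipping, and that of Cacnb4 gave one on inclusion, 2 of 8. Over all genes, 140 of the 637 exons in all 6 libraries gave an early stop on skipping and 77 on inclusion. In 5 libraries, the 217-nt exon 3 of 4 of Kcnj3, a G protein-gated potassium channel, gave a late stop 3 nt after the junction.

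Some frame-shifting exons came as pairs of equal length in the same gene. There were 21 such pairs without overlap, and in 7 of them the exons were identical at 50% or more of the positions. The gap between the exons of these 7 pairs was 4137 nt or less. Exons of this kind are often exchanged for each other, which keeps the frame, so the single cassette entry stands for a transcript with both or with neither. The pairs were found after the lists had been seen.

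Dnm2, a dynamin that cuts endocytic vesicles from the membrane, held 139-nt exons at chr9:21478899-21479037 and chr9:21480407-21480545 (plus strand). Both were listed in saline libraries 1 and 3 and morphine libraries 1 and 2. Each was listed with the other exon as its flank, that is, as a transcript with both exons beside a transcript with one. In Gria2, a subunit of the AMPA glutamate receptor, the 115-nt exons at chr3:80690404-80690518 and chr3:80691320-80691434 (minus strand) provide the flip and flop forms. The former was listed in saline library 2, and the latter in saline libraries 1 and 2.
Dnm2 first exon: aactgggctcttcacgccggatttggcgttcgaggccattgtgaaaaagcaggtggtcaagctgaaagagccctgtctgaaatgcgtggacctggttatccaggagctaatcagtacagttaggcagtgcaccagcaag
Dnm2 second exon: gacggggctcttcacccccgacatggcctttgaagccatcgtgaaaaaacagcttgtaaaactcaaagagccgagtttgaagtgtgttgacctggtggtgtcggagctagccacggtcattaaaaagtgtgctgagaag
Gria2 exon, lower coordinate: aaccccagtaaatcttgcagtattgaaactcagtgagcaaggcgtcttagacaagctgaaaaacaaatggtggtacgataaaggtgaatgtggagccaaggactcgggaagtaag
Gria2 exon, higher coordinate: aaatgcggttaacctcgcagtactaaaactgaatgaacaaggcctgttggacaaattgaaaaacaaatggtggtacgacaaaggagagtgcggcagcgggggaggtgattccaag
The Dnm2 exons were identical at 95 of 139 positions (68.3%), and those of Gria2 at 79 of 115 (68.7%). Flot2 (91 nt, a membrane raft protein) and Adam23 (91 nt, a neuronal adhesion protein) had both exons of the pair in all 6 libraries. Fam49b (83 nt) had both in 4. U2af1 (67 nt, the small subunit of the factor that reads the 3′ splice site) and Scn3a (92 nt, a sodium channel) had both in 1.

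The number of frame-shifting exons per library did not separate the groups. Saline libraries 1, 2 and 3 listed 1713, 1785 and 1873, and morphine libraries 1, 2 and 3 listed 1831, 1953 and 1830. The groups overlapped, with means of 1790 ± 80.1 and 1871 ± 70.7 (SD, n = 3), and the difference of 81 exons was within the spread (exact permutation test, two-sided, p = 0.3, where 0.1 is the smallest that 3 against 3 libraries allow). Per 1000 listed genes, the means were 123.6 ± 3.20 and 127.3 ± 2.90 (exact permutation test, p = 0.3). Frame-preserving exons numbered 2376 ± 108 and 2389 ± 48.5.

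The number listed rose with the relative depth of the library. Over the 6 libraries, Pearson's r was 0.973 (exact permutation p = 0.00278, adjusted p = 0.00833 over 3 relations) and Spearman's rho was 0.943 (exact permutation p = 0.0167, adjusted p = 0.05). With saline 1 and morphine 2 left out, whose depths lay farthest from the median, r was 0.953. For frame-preserving exons, r was 0.790 (exact permutation p = 0.0639, adjusted p = 0.0958) and Spearman's rho was 0.886 (exact permutation p = 0.0333, adjusted p = 0.05). The mean depth was 1.14 in the saline group and 1.36 in the morphine group, but the groups overlapped. Saline library 3 (depth 1.37, 1873 exons) lay above morphine libraries 1 (1.20, 1831) and 3 (1.285, 1830) in both. With 3 libraries per group, depth and group were not told apart in these counts. The depth estimate itself rests on 91 values, with 4 transcripts linking the groups.

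The frame-shifting share of single cassette exons did not overlap between the groups, but by a narrow margin. It was 42.63%, 43.45% and 42.83% in saline libraries 1, 2 and 3 and 43.53%, 44.43% and 43.79% in morphine libraries 1, 2 and 3. The means were 43.0% ± 0.427 and 43.9% ± 0.460 (SD, n = 3), and the difference of 0.945 percentage points reached the smallest p that the design allows (exact permutation test, two-sided, p = 0.1), which is 0.575 after adjustment over the 23 measures compared. The share of annotated frame-shifting exons that were wholly coding, 50.3% ± 0.860 and 52.2% ± 0.574, behaved likewise (exact permutation test, p = 0.1, adjusted p = 0.575). The share against depth had r = 0.678 (exact permutation p = 0.129), and -0.437 without saline 1 and morphine 2, so that relation rested on these libraries. The early-stop share of coding exons was 67.5% ± 2.29 and 69.3% ± 0.771 (exact permutation test, p = 0.2).

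**Figure D5:**
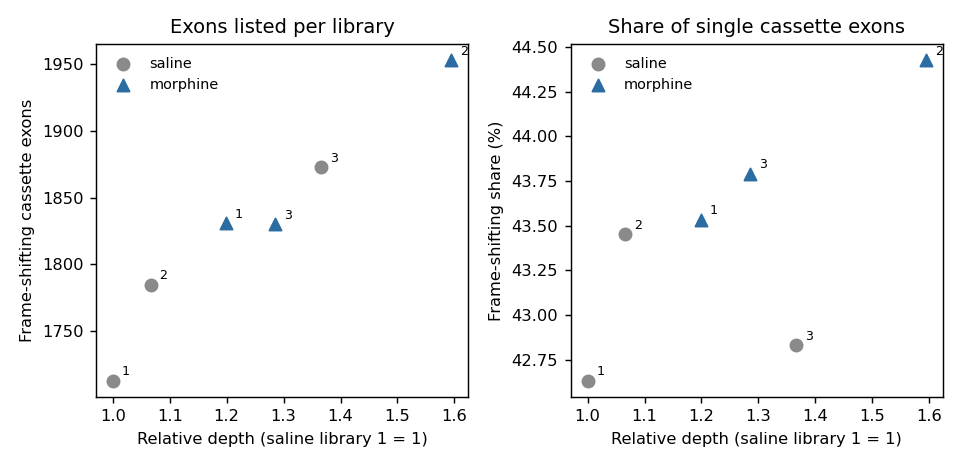
Frame-shifting cassette exons per library (left) and their share of single cassette exons of 28 nt or more (right, percent) against the relative depth of the library (saline library 1 = 1), with saline libraries as circles and morphine libraries as triangles, numbered by library. The counts run from 1713 at the lowest depth to 1953 at the highest, while the shares of the groups lie apart by 43.45% against 43.53% at their closest.

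Of the 4237 frame-shifting exons, 61 (1.44%) were listed in every library of one group and never in the other group, 25 in the saline group (0.590%) and 36 in the morphine group (0.850%). Of all 8834 single cassette exons, 1.26% had this pattern, 0.555% in the saline and 0.702% in the morphine direction. Of all 133207 listed events, it was 0.660%, with 0.278% and 0.382%. The share among frame-shifting exons was therefore near that of single cassette exons as a whole. No single exon can pass a test with 3 libraries against 3. With a library left out, fewer libraries of its group have to list an exon, so a rise in the number of that group follows from the rule. The number for both groups together was then 106 to 140, and the group with more such exons depended on which library was left out. It was 60 saline-only and 46 morphine-only exons without saline library 1, 70 and 59 without saline 2, and 55 and 61 without saline 3. It was 47 and 93, 45 and 79, and 43 and 85 without morphine libraries 1, 2 and 3. Of the 61, the 57 on the annotated strand of their gene lay in genes with listed events in all 6 libraries. Of the other 4, 3 lay in the Rian locus described further on, and 1 was on a patch sequence described there. None of the 61 was in the 8 gene lists.

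The saline-only exons included 12 at coding exons, of which 7 gave an early stop on skipping and 5 a late stop. Early stops were read for the 62-nt exon 7 of 9 of Neil1, a DNA glycosylase of base excision repair, and the 118-nt exon 5 of 7 of Mtrf1l, a mitochondrial translation release factor. They were also read for the exons of Pafah2 (97 nt, platelet-activating factor acetylhydrolase), Slc38a10 (118 nt) and Slc18b1 (157 nt), which are membrane transporters, Zc3h8 (134 nt) and 5330417C22Rik (193 nt). Late stops were read for Iqsec2 (50 nt, a postsynaptic exchange factor of Arf GTPases), Dgkd (131 nt, a diacylglycerol kinase), Ipo9 (77 nt, an importin), Cdkl3 (74 nt, a kinase) and Pip4p1 (106 nt, a phosphoinositide phosphatase). All but that of Pip4p1 were the next-to-last exon, such as exon 14 of 15 of Iqsec2. The longest of all 4237 exons was also saline-only. It spanned 22231 nt of Cnot4 (chr6:35024128-35046358, minus strand), a subunit of the CCR4-NOT deadenylase complex, and matched no annotated exon.

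The morphine-only exons included 18 at coding exons, 16 with an early and 2 with a late stop on skipping. Over all coding exons the early stop made up 74.3%. Of the 12 longest, an early stop was read for the 172-nt exon 30 of 64 of Atm, the kinase of the DNA double-strand break response, and the 103-nt exon 18 of 22 of Arnt, the partner of several PAS-domain transcription factors. The others with an early stop were Ccdc173 (193 nt), Cfap44 (175 nt, a protein of motile cilia), Hps3 (155 nt, a subunit of a lysosome-related organelle complex), A830018L16Rik (148 nt) and Efcc1 (139 nt). Dpagt1 (121 nt, the enzyme of the first step of N-glycan assembly), Cers4 (118 nt, a ceramide synthase), 4933434E20Rik (118 nt) and Zcrb1 (112 nt, a protein of the minor spliceosome) completed this set. The 122-nt exon 19 of 20 of Igsf9b, an adhesion protein of inhibitory synapses, gave a late stop. In 4 of the 36 morphine-only exons, the same exon was listed within another kind of skipping event in a saline library. The corresponding number among the 25 saline-only exons was 0.

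Several morphine-only exons came from a single locus. Under the identifier of Rtl1, 6 frame-shifting exons were listed, all on the strand opposite to that gene, and 3 of them (130, 176 and 88 nt) were morphine-only. Their positions lie within Rian (chr12:109603940-109661716, plus strand), an imprinted long non-coding RNA that hosts small nucleolar RNAs, and the 130-nt and 88-nt exons are annotated Rian exons. A further morphine-only exon of 88 nt was listed on a patch sequence, under a gene identifier absent from the annotation. Its sequence was not read, so whether it is the Rian exon is not known. With it, up to 4 of the 36 morphine-only entries belonged to this locus. As a non-coding RNA has no reading frame, the length of these exons bears on no protein. Listed events of any type within Rian on its strand numbered 1, 0 and 3 in saline libraries 1, 2 and 3 and 80, 112 and 37 in morphine libraries 1, 2 and 3. The groups did not overlap in this count, which was made because of the exons above and was not tested. The same count was not made for other loci, so how many others would also not overlap is not known. On the annotated strand of their gene, 32 morphine-only exons remained.

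A few genes held many frame-shifting exons. There were 2172 genes with 1, 589 with 2 and 260 with 3 or more. Upp2, a uridine phosphorylase, held 8, each listed in 1 library, and 1 of them was annotated. Of the genes with 6, Susd1 and Wdr78 held mostly annotated exons (5 of 6 each) that no more than 3 and 2 libraries listed. In contrast, Zbtb20, a zinc finger repressor of neural development, held 6 annotated exons, 2 of them in all 6 libraries and none wholly coding. Atxn1, the gene of spinocerebellar ataxia protein ataxin-1, Lingo2, a neuronal membrane protein, and Ptk2, the focal adhesion kinase, each held 1 exon in all 6, and 4933427D14Rik held 2. The 6 exons of 4732471J01Rik included 5 listed in 1 library. Over all genes, 548 of the 4237 exons (12.9%) overlapped another on the same strand and are variants of a common region rather than separate exons.

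At the length bound, the event lists held 11 exons of 28 nt and 9 of 29 nt, of which 0 and 1 were listed in all 6 libraries, and 13 of 25 nt and 11 of 26 nt, of which 3 and 1 were. At the other end, 174 exons were longer than 1000 nt, and the median length was 113 nt, against 102 nt in frame-preserving exons. The median GC content of annotated exons was 49.3% and 50.6%.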

How the data were processed

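RNA of the NAc was sequenced in 6 libraries, 3 of the saline and 3 of the morphine group, grouped by the treatment label, with library numbers in accession order. Per the study's methods, reads were mapped with HISAT2 and assembled with StringTie. The genome build and the event caller are not given in the sources used here. The event lists deposited by the authors hold a type, gene, position and strand per event. Their column named FPKM holds only 0 and negative whole numbers, not FPKM, and was not used. The deposited table of differential lncRNA transcripts gave a raw read count and an FPKM value, normalised by the authors to transcript length and mapped fragments, and its log2 fold changes and p-values, the authors' own, were not used. From count over FPKM, the relative depth was estimated over 91 values with at least 10 counts, with 4 transcripts linking the groups. The number of per-sample columns left unused was 0.

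Exons were matched exactly to GENCODE M21 on GRCm38, in which 99.3% of the gene identifiers were found. Positions are as listed, from 1. Coding exons were read in the complete coding transcript with the longest coding sequence. Sequences are from the GENCODE transcripts, which held 3303 of the exons. For counts and shares per library, exact permutation tests (two-sided) were made, 3 against 3 (smallest p 0.1) or by swapping exon classes within 6 libraries (smallest p 0.031), with Benjamini-Hochberg adjustment and a threshold of 0.05. The class swap was also planned for listing in all 6 libraries and counted in the adjustment, but its p is not reported, since the same exons are counted in every library. Scripts were tested on simulated data. The tools were pandas 2.3.3, numpy 2.4.6, matplotlib 3.10.9 and scipy 1.17.1 in Python 3.11.15. Alternatives changed the libraries, the identity of an event, the annotation, strand, sequence and length filters, the event types and the transcript read.

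The exons, gene lists and markers were chosen with earlier results of these data known. Named exons were those of the lists in all 6 libraries, the 12 longest coding exons of each group-only set, the genes with most exons (10 because of ties) and the longest exon, of which 1 is not reported here. Exons in fewer libraries, the equal-length pairs and Rian were named after their values were seen.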

Additional observations from a re-analysis of the deposited data

How the results depend on the processing

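An exon missing from a list was not shown to be absent from the tissue, since listing depends on depth and assembly, and no event carries a level. With each library left out in turn, the difference in number (morphine minus saline) ran from 40.2 to 122 exons, and that in the frame-shifting share from 0.690 to 1.18 percentage points. The number of group-only exons ran from 106 to 140, since fewer libraries have to list an exon. The differences between frame-shifting and frame-preserving exons ran from -22.0 to -20.6 percentage points for listing in all libraries, from -24.1 to -23.5 for wholly coding and from -6.77 to -6.32 for annotated exons. For coding and annotated exons, 5 libraries cannot give an exact p under 0.0625, and listing in all libraries carries no test. The early-stop share was 55.8% in place of 74.3% for exons in all 6 libraries, 73.6% over every coding transcript, 73.9% with a distance of 55 nt, and 74.0% with the listed flanks, an alternative chosen after seeing the data. The other alternatives kept the direction and the side of the threshold, and gave 51 to 65 group-only exons. No paired analysis was possible because the labels give no replicate numbers shared by the groups.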
